A study of Mus musculus with 12 samples.

Results

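The TNF ligand and receptor superfamily was examined in RNA labelled as hippocampal from 12 adult female mice, 4 in each of 3 groups. Its members were taken by name from the array's own annotation. They are all genes whose symbol begins with Tnfsf or Tnfrsf, together with *Tnf*, *Lta*, *Ltb*, *Ltbr*, *Fas*, *Fasl*, *Cd40*, *Cd40lg*, *Cd27*, *Cd70*, *Eda*, *Edar*, *Eda2r*, *Ngfr* and *Relt*. This gave 47 of 29608 genes, measured by 61 of 39429 probes. The mice were about 12 weeks old and were killed in diestrus. In MRL/lpr mice the lpr mutation disables *Fas*, and they are used as a model of lupus. Fn14koMRL mice are littermates bred on MRL/lpr, so that they carry the same *Fas* mutation, and they lack a functional *Tnfrsf12a*, the gene of the receptor Fn14. MRL/MpJ is the MRL strain with normal *Fas* and came from another breeder than the other groups. A constitutive knockout reaches every tissue, so effects that start in the brain and effects that start outside it cannot be told apart in this design. The source and tissue labels of all 12 samples give the hippocampus, whereas their free-text descriptions mention the cortex.

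The ligands of the superfamily are mostly trimers that sit in the cell membrane and can be shed by proteases, and they act by drawing their receptors together. Receptors with an intracellular death domain can recruit adaptors that switch on caspases or NF-kB, those without one bind TRAF adaptors directly, and decoy receptors hold ligand away from signalling receptors. In the brain, TNF made by microglia and astrocytes acts on synapses and on the vessel wall, and TWEAK, the product of *Tnfsf12*, signals through Fn14 on endothelial, glial and neuronal cells.

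Each of the 6 two-colour arrays took 2 mice of 1 group, replicates 1 and 3 being labelled with Cy3 and replicates 2 and 4 with Cy5. Both arrays of a group lay on a slide of their own, so slide and group cannot be told apart. With 2 arrays per group, precision was low. A level below is the signal over local background of a gene's probes, as a multiple of the channel's median over all spots. Probes differ in brightness, so levels of different genes are not compared as amounts of RNA. Marker sums and a naming rule use them as they stand, and a sum follows its brightest probes most. Of 43020 spots, Agilent's software called 66.0%, 60.8%, 25.2% and 19.6% in MRL/lpr replicates 1 to 4 well above background, 65.4%, 56.1%, 68.1% and 51.5% in Fn14koMRL and 67.5%, 29.6%, 66.2% and 31.8% in MRL/MpJ. The array of MRL/lpr replicates 3 and 4 was thus weak in both dyes, and the MRL/MpJ arrays were weak in Cy5. Negative-control spots reached 0.489 and 1.12 times the channel median on the weak array and 1.39 and 1.31 times in Cy5 of MRL/MpJ, and 0.0274 to 0.532 times elsewhere. In MRL/lpr replicate 4 and the Cy5 channels of MRL/MpJ, a level near 1 is therefore no higher than that of spots that should bind nothing. The median absolute log2 difference between the dyes over the 47 members was 1.39 and 1.45 on the MRL/MpJ arrays and 0.44 to 0.74 on the other 4. No spot was saturated in any sample (0 in each of 12).

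Markers of brain regions and cell types differed between groups before any member is considered. The summed level of 4 markers of dentate granule neurons, to which *Dsp* added most on the weak array and *C1ql2* on the other MRL/lpr array, was 11.6, 8.55, 20.7 and 13.8 in MRL/lpr replicates 1 to 4, 2.02, 1.99, 1.35 and 2.43 in Fn14koMRL and 1.88, 4, 2.15 and 3.55 in MRL/MpJ. All 4 MRL/lpr mice lay above all 8 others, and 1 of the 4 markers was never well above background in Fn14koMRL and 1 in MRL/MpJ. The sum of 6 striatal markers, to which *Ppp1r1b* added most, was 35.3, 24.4, 17.5 and 13.7 in MRL/lpr, 159, 186, 405 and 103 in Fn14koMRL and 139, 21.4, 99.9 and 19.4 in MRL/MpJ. It was thus higher in every mouse labelled Fn14koMRL than in every MRL/lpr mouse, and in MRL/MpJ it was high in the Cy3 channels only. For 7 choroid plexus markers, to which *Ttr* added most over all samples, the sum was 614, 173, 63.7 and 98.6 in MRL/lpr, 144, 25.1, 23.1 and 10.9 in Fn14koMRL and at most 29 in MRL/MpJ. On the weak array *Otx2* (34.3 and 35) made up much of it, while *Kl*, *Folr1* and *Clic6* were 0.406 to 1.22, so those sums do not stand for the whole list. Hypothalamic markers summed to 324 in Fn14koMRL replicate 1, of which *Oxt* made up 248, and to 3.4 to 28 in the other 11 samples.

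Immune cells are a main source of several ligands, and their markers varied too. For 7 microglial markers, to which *Itgam* added most, the sum was 140, 175, 62.2 and 36.8 in MRL/lpr, 198, 172, 258 and 156 in Fn14koMRL and 223, 77.4, 249 and 93.6 in MRL/MpJ. Markers of T cells, mostly *Cd4*, which microglia also express, summed to 16.5 to 42.7 over the 12 samples, and *Cd3g* was well above background in 0 of them. B and plasma cell markers summed to 23.5, 10.6, 7.82 and 8.52 in MRL/lpr against 2.38 to 5.34 in the other 8 samples. *Jchain*, the joining chain of secreted antibodies, made up most of it in MRL/lpr replicates 1 and 2 with levels of 19.3 and 8.25, while *Ms4a1*, which encodes CD20, was well above background in 0 of 12 samples. The sums ranged from 16.5 to 215 for astrocytes (*Slc1a3* adding most), 12.3 to 186 for endothelium (*Cldn5*), 70.5 to 854 for neurons (*Syt1*), 13.9 to 173 for pyramidal neurons of the hippocampus (*Wfs1*) and 46.3 to 2390 for blood (*Hba-a2*). For astrocytes, endothelium, neurons, pyramidal neurons and blood the lowest sum was that of MRL/lpr replicate 4, on the weak array. In RNA from whole tissue, fewer cells of a type and less RNA per cell cannot be told apart. The part that these marker differences have in the values of the members was not tested.

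The targeted gene is given before the other members. *Tnfrsf12a* encodes Fn14, a small receptor without a death domain, and its single probe lies on the minus strand at chr17:23812746-23812805 of mm9. Its level was 7.08, 4.5, 1.63 and 0.809 in MRL/lpr replicates 1 to 4, 4.63, 3.49, 5.08 and 2.91 in Fn14koMRL and 6.81, 3.43, 12.9 and 3.51 in MRL/MpJ. Its spot passed as well above background in each mouse labelled Fn14koMRL and each MRL/MpJ mouse, but in 2 of 4 MRL/lpr mice, and the 3 groups overlapped. The mean level was 3.51 ± 2.86 (SD, 4 mice) in MRL/lpr, 4.03 ± 1 in the mice labelled Fn14koMRL and 6.65 ± 4.43 in MRL/MpJ. On the log2 scale, limma gave a difference of -0.63 (SE 0.75, adjusted p = 0.637) for MRL/lpr against Fn14koMRL and of -0.53 (SE 0.75, adjusted p = 0.856) for Fn14koMRL against MRL/MpJ, and the exact permutation test of 4 mice against 4 gave p = 0.457 and p = 0.371. For MRL/lpr against MRL/MpJ it was -1.16 (SE 0.75, adjusted p = 0.854 by limma, exact p = 0.257), and -0.01 without the weak array. Without the weak array the difference between MRL/lpr and Fn14koMRL was 0.52, and with the median of the spots valid in all samples 0.83, so that its direction turned. The RNA measured by this probe was thus not lost in the mice labelled Fn14koMRL. The files do not say whether the probe lies in the deleted stretch of the gene, and a probe outside it would check neither the knockout nor the labels. Because of this signal, the group is called the mice labelled Fn14koMRL. The first 30 of the probe's 60 bases are printed so that it can be placed on the targeted allele, and those of the *Fas* probe because that gene carries the lpr mutation.
Tnfrsf12a: agccttccaaggtgtccaattgccctatct
Fas: gaagaccttccattgatggacagttctttt

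The members were compared with limma on log2 levels, with dye as a term, the array as a random block and Benjamini-Hochberg adjustment over all 29608 genes, and a gene was called at an adjusted p under 0.05. In the comparisons that follow, each count of members stands beside the same count over all genes, since the list was not tested as a set. Mice of an array resembled each other, and the array correlation was 0.658. The spread of this fit came largely from MRL/lpr, in which the root mean square residual was 1.27, 1.52, 1.76 and 1.08 on the log2 scale, compared with 0.295 to 0.569 in the other 8 mice. A count of 0 between the other groups therefore rests on a spread that those groups did not have. Leaving out the weak array gave an array correlation of -0.475, which no shared array effect can produce, and the median SE was then 0.29 for MRL/lpr against either group and 0.24 between the other groups, in place of 0.93. With the correlation held at 0.658, a setting chosen after seeing the data, it was 0.86, 0.86 and 0.70. Counts without the weak array are given under both, and the choice between them decides nearly every call. Other fits without that array, also chosen after seeing the data, called members too. In the order of the comparisons below, no array block gave 15, 10 and 7 members (34.7%, 14.6% and 25.5% of all genes). A dye term per group, at an estimated correlation of 0.341, gave 19, 14 and 16 (47.4%, 38.3% and 54.8%).

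Against MRL/MpJ, which addresses how lupus-prone mice differ from their background strain, the MRL/lpr mice lay wholly below in *Fas* and *Eda*. These are 2 of 47 members (4.26%), compared with 1669 of 29608 genes (5.64%). Limma called 0 of 47 members and 4 of 29608 genes (0.0135%), and at an unadjusted p under 0.05 it held 2 members, *Fas* and *Tnf*, and 1677 genes. With mice of an array taken as independent, 0 members and 294 genes (0.993%) were called. Leaving out the weak array gave 25 members and 15183 genes (51.3%) with the negative correlation, but 0 members and 67 genes (0.226%) at 0.658. The methods' t-test, run here without their spot filter and without the fold-change cut they add to it, held 2 members and 1125 genes before adjustment. After adjustment it held 0 of either. The median log2 difference was -0.20 over the members and -0.25 over all genes.

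Between MRL/lpr and the mice labelled Fn14koMRL, the contrast that bears on Fn14, more genes had groups apart. *Edar* lay wholly above in MRL/lpr, and *Fas*, *Eda*, *Tnfrsf11a*, *Tnfrsf11b*, *Tnfrsf19*, *Tnfrsf4* and *Tnfrsf9* wholly below. These 8 of 47 members (17%) compare with 9326 of 29608 genes (31.5%), of which 7792 were lower in MRL/lpr. Limma called 0 members and 12 genes (0.0405%), and at an unadjusted p under 0.05 it held 3 members, *Edar*, *Tnf* and *Tnfrsf19*, and 5505 genes. Without the array block 3 members, *Edar*, *Tnfrsf11b* and *Tnfrsf9*, and 3788 genes (12.8%) were called. Without MRL/lpr replicate 2 limma called 6 members, *Edar*, *Ltbr*, *Relt*, *Tnf*, *Tnfrsf19* and *Tnfrsf9*, and 9231 genes (31.2%). Leaving out the weak array gave 18 members and 12259 genes (41.4%) with the negative correlation, but 0 members and 209 genes (0.706%) at 0.658. The methods' t-test held 11 members and 9049 genes before adjustment, and 0 members and 1 gene after it. The median log2 difference was 0.10 over the members and -0.08 over all genes. It was -0.52 and -0.53 without the weak array, and -0.54 and -1.02 among genes well above background in at least 4 samples. Dividing by the median of the spots valid in all samples gave 1.37 and 1.35, so each direction in this comparison is relative to the scaling.

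The mice labelled Fn14koMRL were apart from MRL/MpJ in 1 of 47 members (2.13%), *Ltbr*, which was higher, compared with 2335 of 29608 genes (7.89%). Limma called 0 members and 0 genes (0%), and at an unadjusted p under 0.05 it held 1 member, *Ngfr*, and 180 genes. Dropping the array block again gave 0 members and 0 genes (0%). The weak array holds neither of these groups, yet leaving it out gave 22 members and 18868 genes (63.7%) with the negative correlation, and 0 members and 0 genes (0%) at 0.658. The methods' t-test, which uses these 8 mice only, held 2 members and 2325 genes before adjustment and 0 of either after it. Whether the groups differ in these members is not settled by counts that move between 0 and 22.

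**Figure D1:**
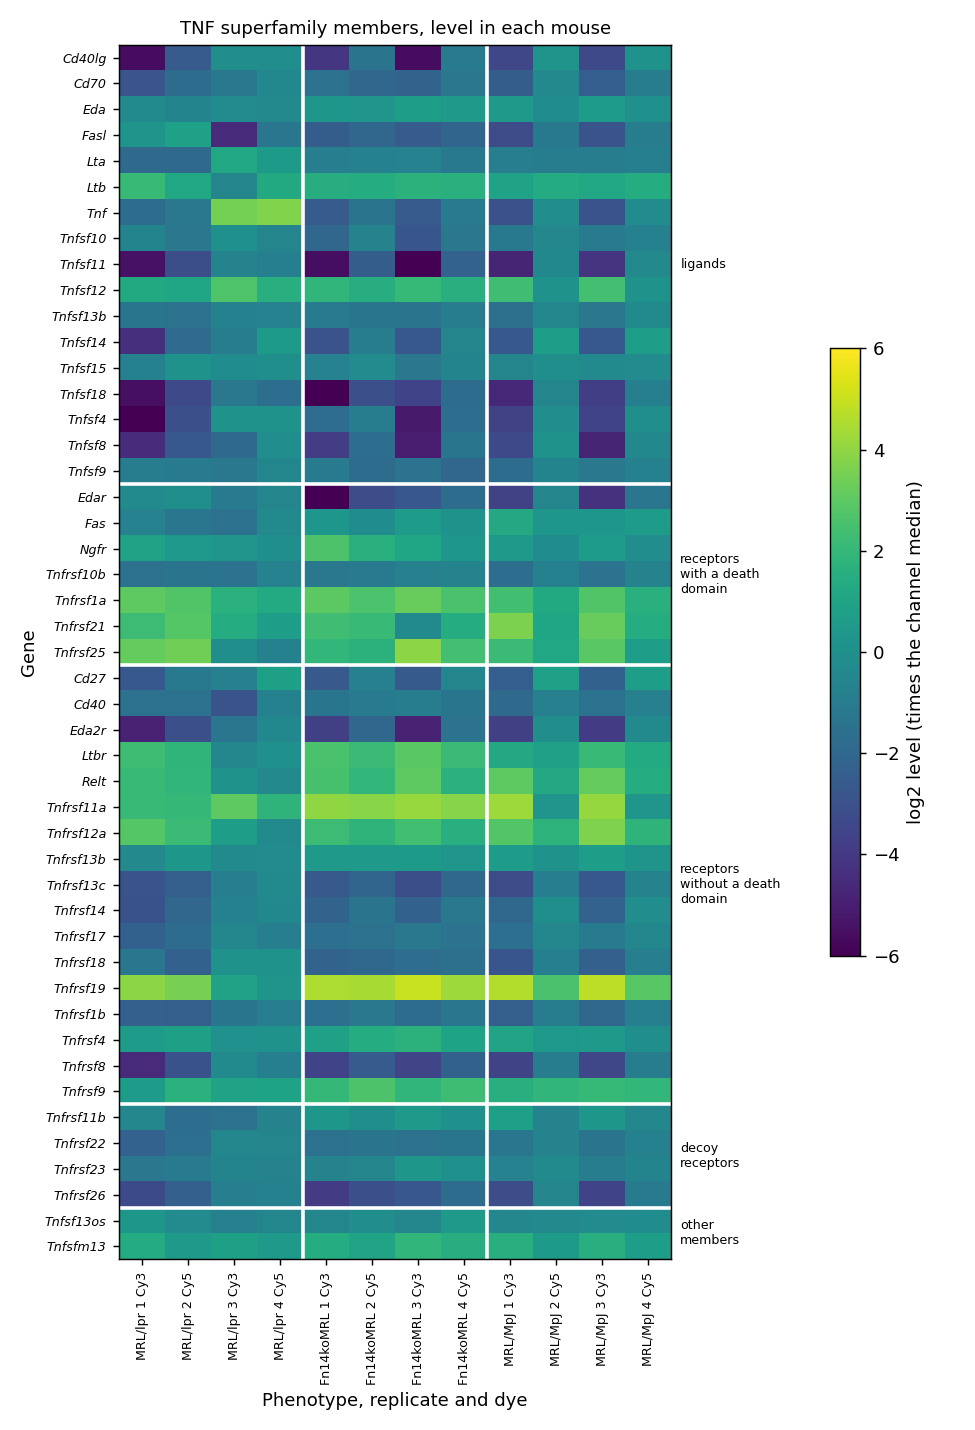
Log2 level (colour, log2 of the multiple of the channel median) of the 47 members, ordered by role in the lines of the map, in the 12 samples, which form its columns by group and replicate. The high values of *Tnf* in MRL/lpr replicates 3 and 4 (levels 11.2 and 13.2) and the difference between Cy3 and Cy5 columns of MRL/MpJ, as in *Tnfrsf11a* (19.1 and 17 against 1.2 and 1.18), stand out.

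Most members gave little signal. Of the 47, 8 had a spot well above background in 10 or more samples and 9 in 0 samples. By role this was 2 and 5 of 17 ligands, 1 and 0 of 7 receptors with a death domain, 5 and 3 of 17 receptors without one and 0 and 1 of 4 decoy receptors. The 2 members in no role list, *Tnfsf13os* and *Tnfsfm13*, lie beside *Tnfsf12* on chromosome 11 and were well above background in 8 samples each, with levels of 0.587 to 3.77.

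Among the ligands, *Tnfsf12* encodes TWEAK, which binds Fn14. Its level was 2.44, 2.1, 6.4 and 2.91 in MRL/lpr replicates 1 to 4, 3.75, 2.77, 4.07 and 2.87 in Fn14koMRL and 5.01, 1.12, 5.41 and 1.12 in MRL/MpJ. The groups overlapped in full, and in MRL/MpJ both Cy3 values exceeded 5 while both Cy5 values lay near the negative controls. The log2 difference was 0.38 (SE 0.78, adjusted p = 1 by limma) for MRL/lpr against MRL/MpJ, -0.09 (adjusted p = 0.95) against Fn14koMRL and 0.46 (adjusted p = 0.856) for Fn14koMRL against MRL/MpJ. All 3 turned sign under at least 1 other setting, such as the Cy3 channels alone with -0.40, 0.01 and -0.41. Its 2 probes, at chr11:69500342-69500401 and chr11:69500528-69500587, differed in MRL/lpr replicate 3, where the first read 11.6 and the second 1.15, compared with 3.45 and 1.42 in replicate 1. The high value of that mouse thus came from 1 probe.

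*Tnf*, *Lta* and *Ltb* lie side by side on chromosome 17, with probes at chr17:35336795-35336854, chr17:35340275-35340334 and chr17:35333097-35333156, and encode TNF, lymphotoxin alpha and the membrane anchor lymphotoxin beta. *Tnf* was 0.293, 0.442, 11.2 and 13.2 in MRL/lpr, 0.171, 0.384, 0.169 and 0.465 in Fn14koMRL and 0.123, 0.936, 0.134 and 0.864 in MRL/MpJ. The high values were those of the weak array alone, and the other 2 MRL/lpr mice lay within the range of MRL/MpJ. The gap between the MRL/lpr arrays, weak minus first, was 5.07 on the log2 scale. In that direction, 938 of 29608 genes had a larger one. *Tnf* was well above background in 0 of 4 MRL/MpJ mice, which therefore give only a bound. A bound sets the mean log2 level of the brighter group against that of the dim one, with, in each dim sample, the higher of its own level and the lowest level of any spot called well above background. *Tnf* in MRL/lpr was at least 3.75-fold higher than in MRL/MpJ (limma's adjusted p = 0.854, exact p = 0.171), a difference that rests on the weak array. Against Fn14koMRL, in which 1 of 4 spots was well above background, the log2 difference was 2.96 (SE 1.20, adjusted p = 0.262 by limma), and 0.43 without the weak array. As most of those spots were dim, neither value is an exact fold.

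*Lta* had the same split, with 0.277, 0.275, 2.28 and 1.45 in MRL/lpr, against 0.457 to 0.622 in Fn14koMRL and 0.527 to 0.563 in MRL/MpJ. Its MRL/lpr mice thus lay below all other mice on the first array and above all on the weak one. This gap was 2.72 on the log2 scale, and 6802 genes exceeded it in the same direction. *Ltb* was 4.44, 2.28, 0.69 and 2.44 in MRL/lpr, 2.78, 2.67, 3.25 and 3.07 in Fn14koMRL and 1.9, 2.62, 2.28 and 2.7 in MRL/MpJ, with overlap in every comparison. The 3 genes were not high in the same MRL/lpr mice, since *Ltb* was highest in replicate 1.

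*Fasl*, whose product triggers apoptosis through Fas, ran the other way between the MRL/lpr arrays. Its level was 1.16, 1.83, 0.0437 and 0.405 in MRL/lpr, 0.179, 0.246, 0.176 and 0.238 in Fn14koMRL and 0.108, 0.448, 0.134 and 0.526 in MRL/MpJ. It was high in MRL/lpr replicates 1 and 2 only, the mice in which *Jchain* was highest. In MRL/MpJ 0 of 4 spots were well above background, and the comparison with it gives no bound above 1 (adjusted p = 0.989 by limma). The log2 difference against Fn14koMRL, where 1 of 4 spots was well above background, was 1.09 (SE 1.12, adjusted p = 0.583 by limma, exact p = 0.343). Without the weak array it was 2.81, with an adjusted p of 2.64e-06 at the negative correlation, 0.00015 with mice of an array taken as independent and 0.153 at the correlation of 0.658. That difference rests on 2 mice of 1 array and on mostly dim spots in Fn14koMRL, so it is no exact fold.

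*Eda*, the ligand of the ectodysplasin receptor in skin appendages, was 0.803, 0.675, 0.867 and 0.796 in MRL/lpr, 1.26, 1.21, 1.66 and 1.35 in Fn14koMRL and 1.35, 0.885, 1.5 and 1 in MRL/MpJ. All MRL/lpr mice lay below all others, the closest being MRL/MpJ replicate 2, and the log2 difference was -0.80 (SE 0.49, adjusted p = 0.345 by limma, exact p = 0.0286) against Fn14koMRL and -0.57 (SE 0.49, adjusted p = 0.891, exact p = 0.0286) against MRL/MpJ. The smallest p that this exact test can give is 0.0286, and it takes mice of an array as independent. Over 31 other settings the former ran from -1.16 to 0.66 and the latter from -0.85 to 0.35. Only 1 of its 2 probes carried the difference from Fn14koMRL, with 0.924 to 1.49 in MRL/lpr and 2.18 to 3.04 in Fn14koMRL, while the other gave 0.116 to 0.667 and 0.139 to 0.331. In MRL/MpJ these probes gave 1.07 to 2.76 and 0.237 to 0.702, so neither alone set MRL/lpr apart from that group. The Cy5 gene values of MRL/MpJ, 0.885 and 1, also lay below the negative controls. The remaining ligands, *Cd40lg*, *Cd70*, *Tnfsf4*, *Tnfsf8*, *Tnfsf9*, *Tnfsf10*, *Tnfsf11*, *Tnfsf13b*, *Tnfsf14*, *Tnfsf15* and *Tnfsf18*, had levels of 0.00352 to 1.66 and were well above background in 0 to 7 samples.

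*Fas* is the receptor with a death domain that carries the lpr mutation, and its probe lies at chr19:34402164-34402223 on the plus strand. Its level was 0.619, 0.411, 0.364 and 0.831 in MRL/lpr replicates 1 to 4, 1.22, 0.907, 1.54 and 1.09 in Fn14koMRL and 2.36, 1.23, 1.24 and 1.48 in MRL/MpJ. Every MRL/lpr mouse lay below every other mouse, whereas the other groups overlapped. The mean was 0.556 ± 0.214 (SD, 4 mice) in MRL/lpr, 1.19 ± 0.266 in Fn14koMRL and 1.58 ± 0.534 in MRL/MpJ. The log2 difference was -1.53 (SE 0.66, adjusted p = 0.847 by limma, exact p = 0.0286) against MRL/MpJ and -1.15 (SE 0.66, adjusted p = 0.322, exact p = 0.0286) against Fn14koMRL. Between Fn14koMRL and MRL/MpJ it was -0.38 (SE 0.66, adjusted p = 0.856, exact p = 0.229). The direction against MRL/MpJ held under all 31 other settings with usable weights, from -2.25 to -0.15. Against Fn14koMRL it turned to 0.31 with the median of the spots valid in all samples, under which the median of all genes was 1.35. Without the weak array the differences were -1.59 and -1.21, with adjusted p of 5.73e-05 and 0.000731 at the negative correlation, 0.00137 and 0.0122 with mice taken as independent and 0.221 and 0.639 at 0.658. The spot was well above background in 1 MRL/lpr, 4 Fn14koMRL and 2 MRL/MpJ mice, and the Cy5 values of MRL/MpJ, 1.23 and 1.48, lay near the negative controls. The mice labelled Fn14koMRL share the *Fas* mutation by their breeding. Their difference from MRL/MpJ was -1.30 under the median of the spots valid in all samples, and 0.49 with Agilent's processed signal. The former scaling moved the median of all genes in that comparison from -0.02 to -0.97.

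*Edar*, the receptor of ectodysplasin, was the only member wholly higher in MRL/lpr than in the mice labelled Fn14koMRL. Its level was 0.8, 0.994, 0.485 and 0.678 in MRL/lpr, 0.0077, 0.111, 0.151 and 0.3 in Fn14koMRL and 0.0782, 0.691, 0.051 and 0.413 in MRL/MpJ. MRL/lpr replicates 3 and 4 lay below MRL/MpJ replicate 2. They also lay below their own negative controls, at 0.489 and 1.12 times the channel median. The separation of these mice from Fn14koMRL thus does not rest on signal above those controls. The spot was well above background in 2 of 4 MRL/lpr mice and in 0 of 8 others, so no fold is given. Limma gave an adjusted p of 0.262 against Fn14koMRL (exact p = 0.0286) and of 0.854 against MRL/MpJ. The comparison with Fn14koMRL had an adjusted p of 0.0379 without the array block.

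The other death-domain receptors overlapped between groups. *Tnfrsf1a*, the main receptor of soluble TNF, was well above background in all 12 samples, with levels of 8.01, 6.77, 3.21 and 2.54 in MRL/lpr, 7.84, 6.02, 9.19 and 5.89 in Fn14koMRL and 5.1, 2.43, 6.6 and 3.04 in MRL/MpJ. The neurotrophin receptor gene *Ngfr* was 1.87, 1.32, 1.19 and 0.992 in MRL/lpr, 6.21, 3.09, 2.14 and 1.25 in Fn14koMRL and 1.4, 0.89, 1.48 and 0.911 in MRL/MpJ. The highest value was that of Fn14koMRL replicate 1, in which the hypothalamic and, within its group, the choroid plexus markers were highest too, and the log2 difference between Fn14koMRL and MRL/MpJ was 1.23 (SE 0.57, adjusted p = 0.856 by limma). *Tnfrsf25*, a receptor of T cells, was 8.94, 10.5, 0.99 and 0.598 in MRL/lpr, 3.91, 3.27, 15 and 5.26 in Fn14koMRL and 4.6, 2.29, 7.68 and 1.59 in MRL/MpJ. *Tnfrsf21*, which encodes death receptor 6 and is expressed by neurons, was 4.66, 7.13, 2.7 and 1.63 in MRL/lpr, 5.05, 4.19, 0.84 and 2.7 in Fn14koMRL and 12.6, 2.1, 9.33 and 2.73 in MRL/MpJ. In Fn14koMRL replicate 3 *Tnfrsf25* was highest and *Tnfrsf21* lowest, and striatal markers were highest in that mouse. *Tnfrsf10b*, the TRAIL receptor, ranged from 0.317 to 0.648.

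**Figure D2:**
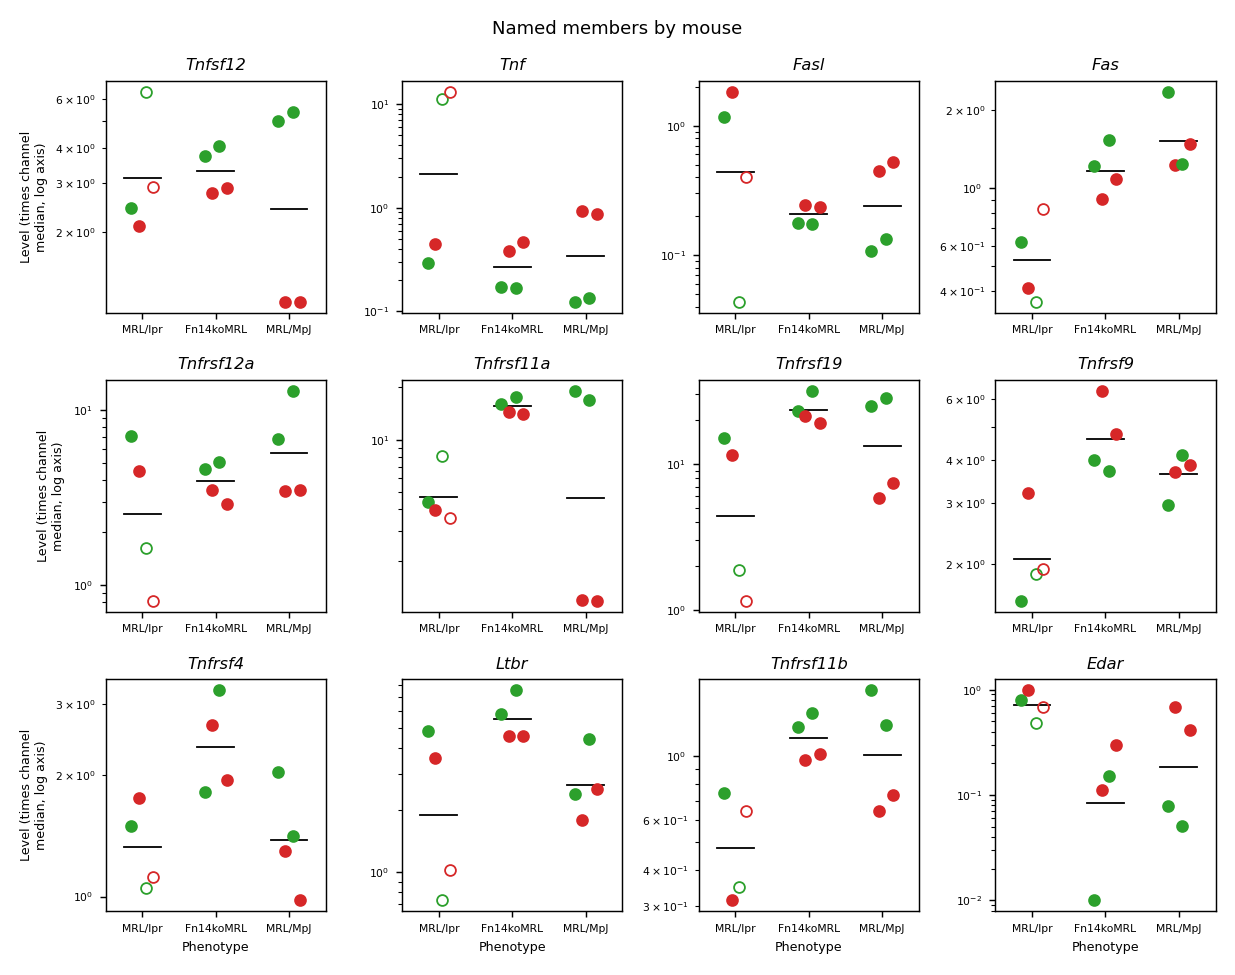
Level of 12 members (vertical axis, multiple of the channel median, log scale) in each mouse by group. Green points are Cy3, red points Cy5, open points the weak array, and bars the mean of the log2 values. *Fas* of MRL/lpr (0.364 to 0.831) lies below that of all other mice (0.907 to 2.36), while *Tnfrsf11a* of MRL/lpr (3.53 to 8.11) lies below the mice labelled Fn14koMRL (14 to 17.7) and between the dyes of MRL/MpJ.

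Among receptors without a death domain, *Tnfrsf19* is expressed by neural stem cells and astrocytes. With all samples, it had the largest log2 difference of these receptors between MRL/lpr and the mice labelled Fn14koMRL. Its level was 15.1, 11.6, 1.87 and 1.15 in MRL/lpr, 23.2, 21.3, 31.7 and 19 in Fn14koMRL and 24.8, 5.88, 28.2 and 7.39 in MRL/MpJ. MRL/lpr lay wholly below Fn14koMRL, lowest on the weak array, and within the span of MRL/MpJ on the other. The log2 difference was -2.41 (SE 0.99, adjusted p = 0.262 by limma, exact p = 0.0286) and, without the weak array, -0.82, smaller than the -1.90 of *Tnfrsf11a*. Astrocyte markers summed to 112, 127, 26.6 and 16.5 in MRL/lpr and 215, 142, 167 and 120 in Fn14koMRL.

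*Tnfrsf11a* encodes RANK, the receptor of the osteoclast factor RANKL. Its level was 4.36, 3.92, 8.11 and 3.53 in MRL/lpr, 16.1, 14.5, 17.7 and 14 in Fn14koMRL and 19.1, 1.2, 17 and 1.18 in MRL/MpJ. MRL/lpr and Fn14koMRL were apart on both MRL/lpr arrays and well above background in all 8 mice, while the MRL/MpJ mice split by dye, with Cy5 values no higher than the negative controls. The log2 difference between MRL/lpr and Fn14koMRL was -1.72 (SE 1.26, adjusted p = 0.434 by limma, exact p = 0.0286), and it was -1.90 without the weak array. Over 32 other settings it ran from -2.11 to -0.26, with adjusted p of 0.000137 to 0.888. Against MRL/MpJ the difference was 0.02 in all samples, but -1.60 in Cy3 alone and 1.65 in Cy5 alone (adjusted p = 0.325 and 0.871 by limma). Its ligand gene *Tnfsf11* was well above background in 0 of 12 samples.

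*Tnfrsf9*, the T cell costimulator 4-1BB, was 1.56, 3.22, 1.87 and 1.93 in MRL/lpr, 3.99, 6.35, 3.73 and 4.76 in Fn14koMRL and 2.97, 3.7, 4.14 and 3.87 in MRL/MpJ. Its MRL/lpr mice were below all mice labelled Fn14koMRL, with a log2 difference of -1.16 (SE 0.60, adjusted p = 0.287 by limma, exact p = 0.0286) and of -1.04 without the weak array. Its adjusted p was 0.0464 without the array block. *Tnfrsf4*, another costimulator of T cells known as OX40, was 1.5, 1.76, 1.05 and 1.12 in MRL/lpr, 1.82, 2.67, 3.26 and 1.95 in Fn14koMRL and 2.04, 1.3, 1.41 and 0.978 in MRL/MpJ. The gap between MRL/lpr replicate 2 and Fn14koMRL replicate 1 was small, and the log2 difference was -0.83 (SE 0.60, adjusted p = 0.424 by limma). With the median of the spots valid in all samples the differences of *Tnfrsf9* and *Tnfrsf4* turned sign, to 0.30 and 0.63. That of *Tnfrsf9* was -0.21 with its probes averaged on the log2 scale, -0.20 with quantile normalization and -0.17 with normexp and quantile normalization.

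*Ltbr* encodes the lymphotoxin beta receptor and was the member in which the mice labelled Fn14koMRL stood apart from MRL/MpJ. Its level was 5.83, 4.55, 7.61 and 4.54 in Fn14koMRL, 2.39, 1.8, 4.43 and 2.52 in MRL/MpJ and 4.82, 3.58, 0.732 and 1.03 in MRL/lpr. Fn14koMRL replicate 4 and MRL/MpJ replicate 3 nearly met, and the log2 difference was 1.06 (SE 0.73, adjusted p = 0.856 by limma, exact p = 0.0286). Its adjusted p without the weak array was 0.00172 at the negative correlation, 0.0263 with mice taken as independent and 0.614 at 0.658. Over 31 other settings the difference ran from 0.15 to 1.54. *Relt*, a receptor of blood-forming cells, was 4.24, 3.72, 1.12 and 0.777 in MRL/lpr, 5.62, 3.79, 8.11 and 3.18 in Fn14koMRL and 8.03, 2.39, 8.87 and 2.73 in MRL/MpJ, with overlap in each comparison. The other receptors without a death domain, *Cd27*, *Cd40*, *Eda2r*, *Tnfrsf13b*, *Tnfrsf13c*, *Tnfrsf14*, *Tnfrsf17*, *Tnfrsf18*, *Tnfrsf1b* and *Tnfrsf8*, had levels of 0.0341 to 1.85 and were well above background in 0 to 8 samples, and *Eda2r*, *Tnfrsf13c* and *Tnfrsf8* in 0.

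Of the decoy receptors, *Tnfrsf11b* encodes osteoprotegerin, which holds RANKL away from RANK. Its level was 0.746, 0.314, 0.35 and 0.645 in MRL/lpr, 1.26, 0.97, 1.41 and 1.02 in Fn14koMRL and 1.7, 0.643, 1.28 and 0.732 in MRL/MpJ. MRL/lpr lay wholly below Fn14koMRL, as it did for *Tnfrsf11a*, but overlapped the Cy5 mice of MRL/MpJ, and its spot was well above background in 1 of 4 MRL/lpr mice. The log2 difference from Fn14koMRL was -1.27 (SE 0.68, adjusted p = 0.296 by limma, exact p = 0.0286), with an adjusted p of 0.0447 without the array block and a range of -1.98 to 0.19 over 31 other settings, the highest under the median of the spots valid in all samples. *Tnfrsf22*, *Tnfrsf23* and *Tnfrsf26*, neighbours on chromosome 7 of which *Tnfrsf22* and *Tnfrsf23* encode decoys of TRAIL, had levels of 0.0693 to 1.27, and *Tnfrsf26* was well above background in 0 samples.

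Probes of one gene differed in how often they gave signal. The brighter probe of *Tnfrsf19*, at chr14:61582873-61582932 on the minus strand, was well above background in 11 samples and the other, at chr14:61589667-61589726 on the same strand, in 5. For *Tnfrsf9* the probes at chr4:150319582-150319641 and chr4:150319101-150319160, both on the plus strand, were well above background in 11 and 0 samples. The gene values of both thus rest mainly on their first probe. The files give no exons or untranslated stretches for these positions. The first 30 bases of each pair are shown so that the transcripts they can bind may be looked up, with 1 the brighter probe.
Tnfrsf19 probe 1: atggaatatattttgaatcgcaggattttc
Tnfrsf19 probe 2: aagccaaggaggctgggaagacagggaaaa
Tnfrsf9 probe 1: catagaccaatggtccagttaaaataactg
Tnfrsf9 probe 2: cgcgcacctcatccaagtctcttctaacgc

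Downstream of the receptors, 45 genes for adaptors, kinases, NF-kB subunits, inhibitors and proteases were compared in the same way. MRL/lpr stood wholly apart from the mice labelled Fn14koMRL in 25 of the 45 (55.6%), 23 of them lower and 2, *Cflar* and *Adam17*, higher, compared with 31.5% of all genes. Against MRL/MpJ it was 6 of 45 (13.3%, with 5.64% of all genes), with *Traf5*, *Ikbkg* and *Rel* lower and *Cflar*, *Nfkbie* and *Adam17* higher, and between Fn14koMRL and MRL/MpJ 4 of 45 (8.89%, with 7.89% of all genes), *Birc2*, *Nfkbie*, *Cyld* and *Otulin*, all higher in Fn14koMRL. Limma called 0 of 45 in each comparison, but 25 for MRL/lpr against Fn14koMRL without MRL/lpr replicate 2 (31.2% of all genes), and 2, 17 and 0 were under an unadjusted p of 0.05 for MRL/lpr against MRL/MpJ, MRL/lpr against Fn14koMRL and Fn14koMRL against MRL/MpJ, as were 5.66%, 18.6% and 0.608% of all genes. Dropping the array block gave 0, 11 and 0 calls, and 0.993%, 12.8% and 0% of all genes. Without the weak array, 7, 18 and 26 were called at the negative correlation (51.3%, 41.4% and 63.7% of all genes) and 0, 0 and 0 at 0.658. The median log2 difference of the 45 genes was -0.60, -1.29 and 0.58 in the same order, and -0.25, -0.08 and -0.02 over all genes. Among the 19477 genes well above background in at least 4 samples it was -0.61, -1.30 and 0.58 for the pathway and -0.48, -1.02 and 0.52 for all, so the gap was smaller among detected genes. With the median of the spots valid in all samples the pathway medians were -0.07, 0.17 and -0.34, beside 0.21, 1.35 and -0.97 over all genes. The signs in the comparisons with Fn14koMRL thus turned under a scaling that moved all genes. Relative to all genes, the pathway lay on the same side as in the main fit. With quantile normalization the pathway medians were -0.81, -0.81 and 0.06, beside -0.18, -0.17 and -0.01 over all genes. Without the weak array the pathway medians were -0.00, -0.59 and 0.58, beside -0.33, -0.53 and -0.02 over all genes. The lower pathway median of MRL/lpr against MRL/MpJ thus rests on that array.

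The genes named next were chosen after their values were seen. *Chuk*, which encodes IKK alpha, was 10.4, 7.34, 1.69 and 0.88 in MRL/lpr, 19.5, 17.2, 32.6 and 14.4 in Fn14koMRL and 17, 6.11, 13.6 and 5.33 in MRL/MpJ. *Rela*, the p65 subunit of NF-kB, was 26.4, 20.5, 2.58 and 1.11 in MRL/lpr, 38.3, 30.7, 49.9 and 27.5 in Fn14koMRL and 30.8, 12.3, 33.6 and 10.8 in MRL/MpJ. In both genes each MRL/lpr mouse was below each mouse labelled Fn14koMRL and the weak array was by far the lowest, so that no log2 difference is given. *Traf5*, an adaptor of TNF receptors in lymphocytes, was low on both MRL/lpr arrays, at 1.31, 0.838, 0.552 and 1.02, against 2.83, 3.91, 6.69 and 2.92 in Fn14koMRL and 2.89, 1.76, 5.89 and 1.71 in MRL/MpJ. It was well above background in 2 MRL/lpr, 4 Fn14koMRL and 2 MRL/MpJ mice. Its values on the weak array lay near or below the negative controls. *Cflar*, which encodes the caspase-8 inhibitor cFLIP, was 1.27, 1.37, 10.5 and 7.12 in MRL/lpr, 0.666 to 0.971 in Fn14koMRL and 0.639 to 0.96 in MRL/MpJ, and *Nfkbie*, an inhibitor of NF-kB, was 1.67, 1.45, 15.3 and 10.7 in MRL/lpr, against 1.41 to 2 and 0.607 to 1.23. Their high values, like those of *Tnf*, came from the weak array. The log2 difference from MRL/MpJ was 2.12 (SE 0.68, adjusted p = 0.595 by limma) for *Cflar* and 2.36 (SE 0.76, adjusted p = 0.6) for *Nfkbie*. Both differences rest largely on the weak array, since the other gave 1.27 and 1.37 for *Cflar* and 1.67 and 1.45 for *Nfkbie*. *Adam17*, whose protease sheds TNF and its receptors, was 0.788, 0.689, 1.05 and 0.936 in MRL/lpr, 0.326, 0.338, 0.312 and 0.465 in Fn14koMRL and 0.287, 0.669, 0.337 and 0.677 in MRL/MpJ. It was well above background in 2 of 4 mice of each group, and replicate 4 of MRL/lpr lay below its negative controls. The log2 difference against Fn14koMRL was 1.27 (SE 0.62, adjusted p = 0.274 by limma, exact p = 0.0286), and the Cy5 mice of MRL/MpJ nearly reached MRL/lpr replicate 2.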

How the data were processed

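RNA of 12 mice was hybridized to 6 two-colour arrays, 1 mouse in each dye. Per the file headers, the authors deposited Agilent Feature Extraction 12.1.0.3 output, which holds for each spot and dye a foreground and background intensity on a linear scale, not normalized between channels, with probe positions in mm9. From these, the median local background was subtracted from the mean foreground, signals were expressed per channel relative to the median of 43020 spots, with a floor of 1% of that median, and linear means were taken over the spots of a probe and then the probes of a gene. No dim spot was removed, since the methods' filter, taken here as foreground over 2 times background in each of these 12 samples, leaves 8864 of 29608 genes. Log2 values were tested with limma 3.58.1 (eBayes with a trend) and statmod 1.5.0 in R 4.3.3, with group, dye and a random array block, and with a two-sided exact permutation test of group means of log2 values, which takes mice as independent. Python 3.11.15, numpy 2.4.6, pandas 2.3.3, scipy 1.17.1 and matplotlib 3.10.9 did the rest. The scripts were tested on simulated data. Few arrays and low signal over background limit the precision. Named by rule are *Tnfsf12*, *Tnfrsf12a* and *Fas*, members past the threshold, up to 6 members per comparison with the largest differences among those with separate groups and a spot well above background in 3 of 4 mice of a group, and per role the 2 with the highest mean level among those well above background in 10 samples; pathway genes past the threshold were to be named, but there were 0. *Tnf*, *Lta*, *Fasl*, *Eda*, *Edar*, *Ngfr*, *Tnfrsf21*, *Tnfrsf25* and *Relt* were chosen after their values were seen. The members, the pathway list, the marker lists and the tests were chosen with earlier results of these data known. Alternatives changed the block, dye term, filter, scaling, background correction, floor, probe averaging, weights and samples, and 7 of them were chosen after seeing the data.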

Additional observations from a re-analysis of the deposited data

Results flagged for a closer look

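In 1 of 60 groups of 4 mice looked at, over 20 genes, a single mouse lay far from the other 3. The level of *Tnfrsf25* in Fn14koMRL replicate 3 was 15, and its gap to the nearest mouse took up 0.83 of the whole range of its group. Chance alone marks about 1 in 20 groups in this way, so 1 in 60 is no more than chance gives.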

How the results depend on the processing

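Each of 15 log2 differences of members named by rule was recomputed under other settings, 486 values in all, of which 408 kept their direction and their side of the threshold, 46 passed it and 32 turned sign. The counts of members and pathway genes called are outside this tally. The values under array weights are in it, although that fit did not converge. The cause of each change was not tested. Members called, 0 in each comparison, became 34, 30 and 42 with array weights (62.9%, 72.1% and 91.3% of all genes; here and below in the order MRL/lpr against MRL/MpJ, MRL/lpr against Fn14koMRL, Fn14koMRL against MRL/MpJ), but the estimation of these weights did not converge. They ran from 0.0272 to 54.5, and 1 mouse of each group was fitted almost exactly (root mean square residual 0.00464, 0.0419 and 0.011), so these counts are not used. Without the weak array they were 25, 18 and 22 at an array correlation of -0.475, and, chosen after seeing the data, 15, 10 and 7 with no array block (34.7%, 14.6% and 25.5% of all genes), 19, 14 and 16 with a dye term per group (correlation 0.341; 47.4%, 38.3% and 54.8%), 0, 0 and 0 at a correlation of 0.658, and 13, 15 and 0 when the Cy5 channels of MRL/MpJ were left out as well (34.3%, 43.7% and 0.642%). A dye term per group in all samples gave 0, 0 and 0 members and pathway genes. Without the array block 3 were called for MRL/lpr against Fn14koMRL, and with only the groups compared 20 for Fn14koMRL against MRL/MpJ, at a correlation of -0.425 (61.5% of all genes). The methods' t-test held 2, 11 and 2 before adjustment. Leaving out each mouse in turn gave 0 to 6 members for MRL/lpr against Fn14koMRL, the 6 without MRL/lpr replicate 2, and 0 in the other comparisons. Of the 45 pathway genes, 21, 39 and 41 were called with array weights, 7, 18 and 26 without the weak array, 0, 0 and 0 without it at a correlation of 0.658, 4, 2 and 10 without it and with no block, 9, 20 and 24 without it and with a dye term per group, and 8 and 26 for MRL/lpr against MRL/MpJ and Fn14koMRL without the Cy5 channels of MRL/MpJ too. It was 11 for MRL/lpr against Fn14koMRL without the array block, 25 for Fn14koMRL against MRL/MpJ with only the groups compared, and 0 to 25 for MRL/lpr against Fn14koMRL when each mouse was left out, the 25 without MRL/lpr replicate 2 (31.2% of all genes). The replicate number as a block (replicate block) left 0, 0 and 0 members called. Same-numbered samples are different mice that share dye and the order of arrays. Their deviations from the group means correlated across genes with 0.77, -0.62, -0.61 and 0.79 for MRL/lpr and MRL/MpJ, 0.61, -0.38, -0.40 and 0.71 for MRL/lpr and Fn14koMRL and 0.69, 0.71, 0.62 and 0.87 for Fn14koMRL and MRL/MpJ; being different mice, they were not taken as pairs. Among all genes, called 4, 12 and 0 times with all calls higher in MRL/lpr, the median of the spots valid in all samples called 29 higher and 77 lower, 26 and 27, and 0, quantile normalization 12 and 7, 9 and 3, and 0, normexp with quantile normalization 7 and 7, 6 and 3, and 0, and Agilent's processed signal 0, 4 and 4, and 0. The log2 difference of *Tnfsf12* turned sign for MRL/lpr against MRL/MpJ with Agilent's processed signal (-0.42), array weights (-0.80), without the weak array (-0.09 under each of 4 settings), in Cy3 alone (-0.40) and without the weak array and Cy5 of MRL/MpJ (-1.01, adjusted p = 0.00789 by limma). Against Fn14koMRL it turned with the methods' filter (1.61), the median of the spots valid in all samples (1.37), quantile normalization (0.87), normexp (0.79) and Cy3 alone (0.01), and leaving out each mouse in turn gave -0.27 to 0.21. For Fn14koMRL against MRL/MpJ it turned with the methods' filter (-0.22), the median of valid spots (-0.46), Cy3 alone (-0.41) and without the weak array and Cy5 of MRL/MpJ (-0.46). The median of valid spots moved the median of all genes in that comparison from -0.02 to -0.97, so this turn is a change of scaling. *Tnfrsf12a* turned for MRL/lpr against Fn14koMRL with the median of valid spots (0.83) and without the weak array (0.52 under each of 5 settings). With the median of valid spots *Fas* (0.31), *Tnfrsf11b* (0.19), *Tnfrsf9* (0.30) and *Tnfrsf4* (0.63) turned in that comparison, where the median of all genes moved from -0.08 to 1.35; *Tnfrsf9* also turned with the methods' filter (0.14), and *Fas* for Fn14koMRL against MRL/MpJ with Agilent's processed signal (0.49). Signal over background limits every dim member: the median foreground was 1.93 and 1.73 times background on the weak array and 4.43 to 12.6 times elsewhere.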
